A study of Mus musculus with 15 samples.

Results

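A set of 10 macrophage genes was followed in the submandibular salivary gland: 5 markers of tissue-resident macrophages (Cd163, Mrc1, F13a1, Folr2 and Lyve1) and 5 other macrophage markers (Csf1r, Adgre1, Cd68, Siglec1 and Ms4a7). The genes were taken by name from the 39179 Ensembl genes counted. All 10 passed the filter on low counts, which kept 14300 genes. The glands came from adult male C57BL/6 mice and were either untreated (NT) or taken 7 days after local irradiation (IR). Other irradiated glands had in addition received a gene by transfer into the gland: GFP in the group IR+GFP, Gli1 in IR+Gli1, and Shh in the group IR+Shh. IR+GFP thus shares both the irradiation and the transfer with the last 2 groups. The labels name no promoter, vector or target cell for the transfer. Whole glands were sequenced, so in every result fewer macrophages and less RNA per macrophage cannot be told apart.

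Macrophages of a gland are of mixed origin: some settle before birth and renew themselves in place, others come from blood monocytes that enter when tissue is damaged. The survival of many macrophages depends on CSF1R, the receptor of the growth factors CSF1 and IL-34. Resident cells around vessels and nerves of many organs are known for the scavenger receptor CD163, the mannose receptor MRC1, the folate receptor FOLR2, the hyaluronan receptor LYVE1 and the clotting-factor subunit F13A1. The adhesion receptor ADGRE1 (F4/80), the lysosomal protein CD68 and the membrane protein MS4A7 are found on wider sets of macrophages. SIGLEC1, a sialic acid receptor, marks some resident cells but is also induced by interferon.

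Of the 15 libraries (3 per group, 18205941 to 41064723 gene reads each), each group held 1 pair that was as alike as repeat draws of 1 library or more so. A chi-square averaged over genes came to 0.215 to 0.337 for these 5 and 22.0 to 223 for the remaining pairs within groups. They differed by less than the sampling noise, so each pair was merged and counted as 1 sample, which left n = 2 per group. No label says that libraries come from separate animals, so p-values measure the spread between these samples, which may be technical. Samples are named by their library numbers, and levels are given as CPM, the reads of a gene scaled to library size with TMM factors. The mouse Gli1 gene was at 0.606 ± 0.093 CPM in the samples labelled IR+Gli1, 0.660 ± 0.151 in IR+GFP and 3.46 ± 1.10 in IR+Shh (SD, n = 2 each), so its reads did not single out the group that carries its name. Mouse Shh had 0 reads in all 10 samples. Directions drawn below for IR+Gli1 rest on that label. The genes of the sublingual gland, a neighbour of the submandibular gland, summed to 34447 CPM in NT 2-3 and 184 in IR+GFP 1-2, and to 0.355 to 1.52 elsewhere. The share of reads aligned to several places was highest in IR+GFP 3 (8.22%) and IR+Gli1 3 (7.53%), and 2.89% to 4.79% in the other libraries.

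Promoters are shown for 4 of the 5 markers that differed between IR+Gli1 and IR+Shh, Cd68 and Ms4a7 in one direction and Mrc1 and F13a1 in the other. They were copied from a RefSeq table (GRCm38.p6) that holds 6 of the 10 genes and gives 250 bases before and 50 bases after each start site. Each is read 5′ to 3′ on the strand of its gene. Capitals mark an AP-1 match (TGANTCA, equal on both strands) or a PU.1 match (GAGGAAGT). F13a1 and Ms4a7 have 2 start sites in the table; both windows of F13a1 are shown, and the window of Ms4a7 at the outer start of the gene.
Cd68 (chr11:69666121-69666420, minus strand): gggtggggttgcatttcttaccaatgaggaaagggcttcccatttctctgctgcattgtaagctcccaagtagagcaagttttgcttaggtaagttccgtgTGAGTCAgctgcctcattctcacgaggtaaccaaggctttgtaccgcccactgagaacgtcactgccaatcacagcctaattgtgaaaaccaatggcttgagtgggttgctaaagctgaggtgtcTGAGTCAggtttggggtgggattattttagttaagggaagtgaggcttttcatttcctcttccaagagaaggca
Ms4a7 (chr19:11336097-11336396, minus strand): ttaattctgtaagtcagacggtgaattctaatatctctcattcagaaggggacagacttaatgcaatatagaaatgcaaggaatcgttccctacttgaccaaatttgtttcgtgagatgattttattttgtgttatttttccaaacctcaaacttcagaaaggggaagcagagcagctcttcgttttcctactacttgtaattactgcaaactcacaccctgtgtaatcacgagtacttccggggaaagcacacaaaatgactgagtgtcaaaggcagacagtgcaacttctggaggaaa
Mrc1 (chr2:14229164-14229463, plus strand): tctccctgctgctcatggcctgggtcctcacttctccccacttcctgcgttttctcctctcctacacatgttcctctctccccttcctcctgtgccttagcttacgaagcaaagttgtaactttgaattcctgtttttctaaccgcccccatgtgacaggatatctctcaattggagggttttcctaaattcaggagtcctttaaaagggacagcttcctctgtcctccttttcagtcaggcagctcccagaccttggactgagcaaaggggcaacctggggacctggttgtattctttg
F13a1, outer start (chr13:37050195-37050494, minus strand): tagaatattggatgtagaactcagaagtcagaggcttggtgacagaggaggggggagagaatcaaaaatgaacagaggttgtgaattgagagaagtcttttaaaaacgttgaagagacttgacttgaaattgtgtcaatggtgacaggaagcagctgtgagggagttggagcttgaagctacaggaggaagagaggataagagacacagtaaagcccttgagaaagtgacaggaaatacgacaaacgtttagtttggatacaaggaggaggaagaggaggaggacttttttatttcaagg
F13a1, inner start (chr13:37049164-37049463, minus strand): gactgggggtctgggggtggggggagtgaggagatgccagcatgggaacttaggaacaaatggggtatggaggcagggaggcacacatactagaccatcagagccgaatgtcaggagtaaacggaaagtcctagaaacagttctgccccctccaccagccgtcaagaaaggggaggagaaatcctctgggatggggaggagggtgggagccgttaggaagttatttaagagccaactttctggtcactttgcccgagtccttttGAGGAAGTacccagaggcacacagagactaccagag

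A search for 3 motifs was run on both strands of the windows of all 6 genes: AP-1, PU.1, the factor of the macrophage lineage, and the interferon-stimulated response element (GAAANNGAAA). Cd68 held AP-1 at 149 and 24 bases before its start site, and a single AP-1 match lay in the inner windows of Folr2 and Ms4a7. Of 32851 promoter windows of 300 bases, 7.81% held AP-1. PU.1 was found once, 14 bases past the inner start of F13a1, and is in 3.20% of all windows. No window of the 6 genes held the interferon element, which is in 3.44% of all windows. The short core GGAAG, shared by PU.1 and other ETS factors, is in 71.4% of windows and tells genes apart little.

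In untreated glands the levels per transcript length (TPM, reads per base of exon as a share of that of all genes) ran from Adgre1 (5.75 ± 3.73, SD, n = 2) and Csf1r (5.74 ± 0.012) through Cd68 (4.86 ± 0.301), Folr2 (2.84 ± 1.49), F13a1 (1.89 ± 0.168), Mrc1 (1.64 ± 0.016), Ms4a7 (1.06 ± 0.00042), Lyve1 (0.780 ± 0.254) and Cd163 (0.758 ± 0.056) to Siglec1 (0.286 ± 0.0070). The samples of Adgre1 overlapped those of Csf1r, Cd68 and Folr2, those of Folr2 also overlapped F13a1, and those of Lyve1 overlapped Cd163, so these neighbours in the order were not separated. In IR+Gli1, Cd68 headed the order with 49.6 ± 35.6 TPM, followed by Adgre1 (16.8 ± 7.03), Csf1r (11.3 ± 1.32) and Ms4a7 (9.58 ± 6.33). Siglec1, last in NT, stood at 4.22 ± 2.03 TPM there, below Folr2 (5.75 ± 2.78) and above Mrc1 (2.36 ± 0.353), F13a1 (1.32 ± 0.165), Lyve1 (1.21 ± 0.651) and Cd163 (0.754 ± 0.452). The IR+Gli1 samples of Adgre1, Csf1r and Ms4a7 overlapped each other, as did those of Ms4a7, Folr2 and Siglec1. Those of Lyve1 overlapped F13a1 and Cd163, so these genes were not separated in the order either. TPM is not TMM-scaled, so the order of genes within a group, not the change between groups, is what it shows.

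**Figure D1:**
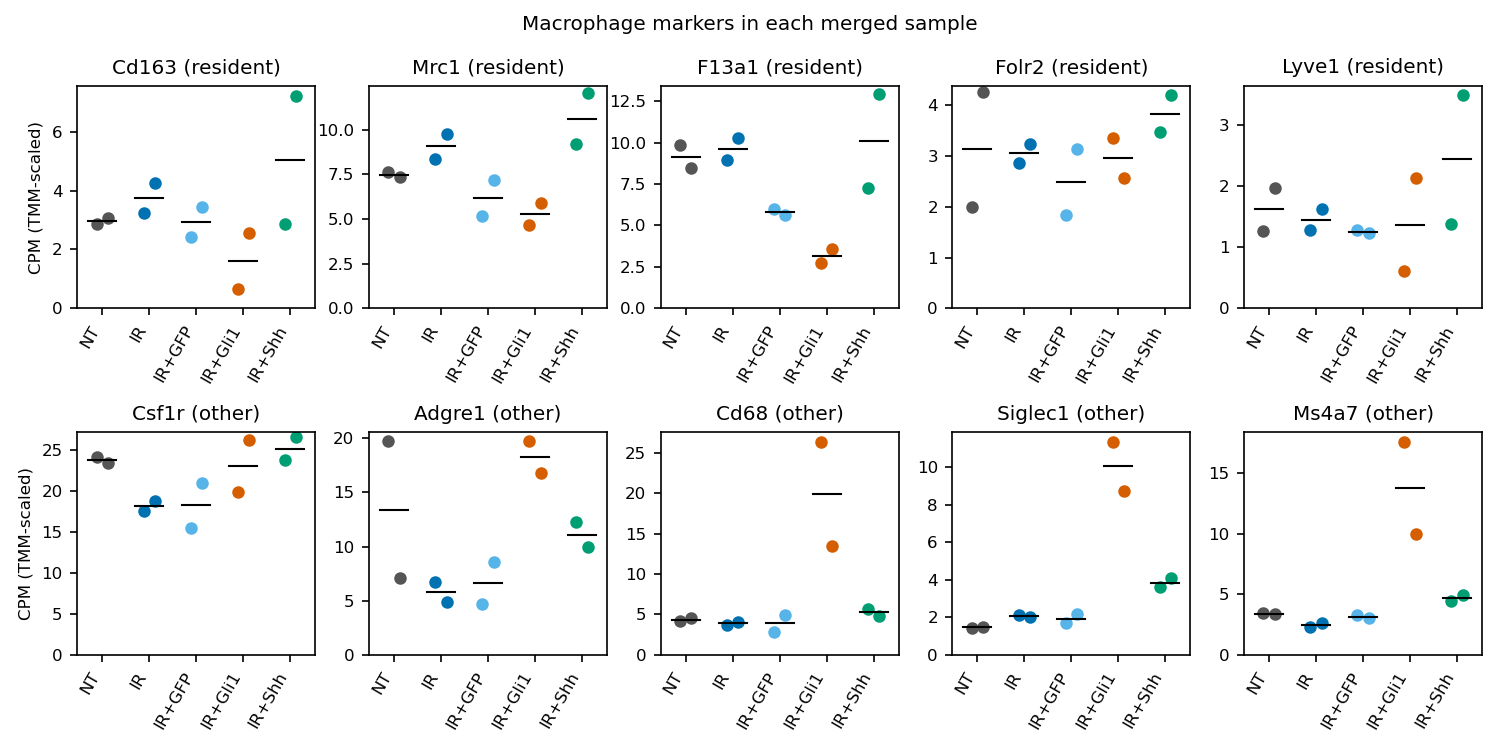
Level of each of the 10 macrophage markers (CPM, TMM-scaled, linear axis from 0) in the 2 merged samples of each group; points are samples and bars are group means. Cd68, Siglec1 and Ms4a7 stand above all other samples in both IR+Gli1 samples, whereas F13a1 and Mrc1 are highest in an IR+Shh sample and lowest in an IR+Gli1 sample.

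The first comparison asks what local irradiation alone left behind after 7 days. None of the 10 markers passed the test of IR against NT (edgeR quasi-likelihood test, Benjamini-Hochberg adjusted over 14300 genes), 2 of them (Csf1r and Adgre1) had an unadjusted p under 0.05, and DESeq2 called 0. Over all genes tested, 0.517% rose and 0.161% fell. The markers did not move as a block. Csf1r was at 24.1 and 23.4 CPM in NT and at 17.6 and 18.8 in IR. Its log2 fold change was -0.39 ± 0.17 (SE, edgeR adjusted p = 0.274). Both IR samples were below both NT samples. Ms4a7 was at 3.43 and 3.34 CPM in NT and 2.31 and 2.65 in IR (-0.45 ± 0.27, edgeR adjusted p = 0.415), again without overlap. Siglec1 went the other way, from 1.46 and 1.47 to 2.11 and 2.0 CPM (0.49 ± 0.23, edgeR adjusted p = 0.302). Cd68 was at 4.25 and 4.51 CPM in NT and 3.74 and 4.11 in IR (-0.16 ± 0.35).

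Adgre1 had the widest spread in untreated glands, 19.7 CPM in NT 1 and 7.12 in NT 2-3, so its log2 fold change of -1.20 ± 0.48 in IR (6.73 and 4.87 CPM; edgeR adjusted p = 0.265) ranged from -1.75 to -0.28 when a sample was left out. NT 1 also stood apart in Itgam (8.58 against 3.52 CPM in NT 2-3), a myeloid integrin that outside this sample and IR+Gli1 did not exceed 4.50 CPM. The neutrophil genes summed to 1.61 CPM in NT 1 and 0.991 in NT 2-3. The other lists did not share 1 direction. B and plasma cell genes summed to 3.12 CPM in NT 1 and 1.43 in NT 2-3. Lymphatic genes came to 9.85 and 6.68 CPM, and T and NK cell genes to 3.34 and 2.53. Monocyte and inflammatory macrophage genes summed to 45.2 CPM in NT 1 and 75.3 in NT 2-3, and core macrophage genes to 315 and 304. NT 2-3 was also the sample with 34447 CPM of sublingual genes. Of the resident markers, Mrc1 was at 7.64 and 7.34 CPM in NT and 8.36 and 9.79 in IR (0.27 ± 0.21), and Cd163 at 2.85 and 3.08 in NT and 3.23 and 4.27 in IR (0.33 ± 0.61). F13a1 (9.82 and 8.44 CPM in NT, 8.97 and 10.3 in IR), Folr2 (2.0 and 4.26, then 2.85 and 3.24) and Lyve1 (1.27 and 1.98, then 1.29 and 1.62) overlapped between the groups. In all, 4 markers had both IR samples below both NT samples and 3 had them above, where 27.3% and 23.9% of all genes did so. The 4 were Csf1r, Adgre1, Cd68 and Ms4a7, and the 3 were Siglec1, Mrc1 and Cd163.

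Counts were also set against those of Csf1r, a measure that needs no scaling between libraries. Per 100 reads of Csf1r, Mrc1 had 31.7 and 31.3 reads in NT and 47.6 and 52.2 in IR, and F13a1 had 40.8 and 36.1 in NT and 51.1 and 54.8 in IR. Cd163 went from 11.8 and 13.2 to 18.4 and 22.8 reads, and Siglec1 from 6.04 and 6.27 to 11.99 and 10.7. Ms4a7 hardly moved on this measure (14.2 and 14.3 reads in NT, 13.2 and 14.1 in IR). Csf1r itself was lower in IR, at 17.6 and 18.8 CPM against 24.1 and 23.4 in NT, which raises every ratio to it. In CPM, F13a1 overlapped between the groups (log2 fold change 0.071 ± 0.25). These ratios have no test of their own.

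GFP transfer into irradiated glands, the control for the transfer, was compared with irradiation alone. No marker passed in IR+GFP against IR by edgeR (2 at an unadjusted p under 0.05, Mrc1 and F13a1; 0 by DESeq2), and of all genes 0% rose and 0% fell (298 genes at an unadjusted p under 0.05; DESeq2 called 7). F13a1 was at 8.97 and 10.3 CPM in IR and at 5.97 and 5.66 in IR+GFP, a log2 fold change of -0.72 ± 0.26 (edgeR adjusted p = 1). Mrc1 was at 8.36 and 9.79 CPM in IR and 5.16 and 7.19 in IR+GFP (-0.56 ± 0.21, edgeR adjusted p = 1). All 5 resident markers had a log2 fold change below 0 (median -0.35), as did 49% of all genes, and in 3 of the 5 (F13a1, Mrc1 and Lyve1) both IR+GFP samples were below both IR samples, as in 15.9% of all genes. The 5 other markers lay between -0.10 (Siglec1) and 0.35 (Ms4a7) on the log2 scale. IR+GFP is also the control of the 2 comparisons that follow, so its low F13a1 and Mrc1 enter them as well.

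Against IR+GFP, no resident marker passed upward under TMM scaling, and the samples labelled IR+Gli1 had more Cd68, Siglec1 and Ms4a7. These 3 of 10 markers passed, all upward, where 8.23% of all genes rose and 5.71% fell. Siglec1 was at 1.71 and 2.15 CPM in IR+GFP and 11.3 and 8.73 in IR+Gli1, a 5.20-fold rise (log2 2.39 ± 0.22, edgeR adjusted p = 0.0013). Cd68 went from 2.81 and 4.98 to 26.4 and 13.4 CPM, a 5.11-fold rise (2.38 ± 0.35, edgeR adjusted p = 0.0055). Ms4a7 went from 3.28 and 3.01 to 17.6 and 9.95 CPM, a 4.37-fold rise (2.13 ± 0.26, edgeR adjusted p = 0.0029). In each of the 3, both IR+Gli1 samples lay above all 8 samples of the other groups. The share of all genes that did so was not counted, and these 3 had already passed the test. The merged sample IR+Gli1 1-2 was the higher one in each.

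Adgre1 was at 4.69 and 8.55 CPM in IR+GFP and 19.8 and 16.7 in IR+Gli1. The groups did not overlap, but the log2 fold change of 1.49 ± 0.49 did not pass (edgeR adjusted p = 0.0894), and NT 1, with 19.7 CPM, was as high as the IR+Gli1 samples. Csf1r, at 15.4 and 21.0 CPM in IR+GFP and 19.8 and 26.2 in IR+Gli1, overlapped (0.34 ± 0.17, edgeR adjusted p = 0.217). Together, 4 of the 10 markers had both IR+Gli1 samples above both IR+GFP samples, against 28.9% of all genes. By its means Csf1r was 1.27-fold higher under TMM scaling, though it passed under scaling by total gene reads, as given below.

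Of the 5 resident markers, 3 had a log2 fold change below 0 in the same samples and 2 above, and none passed under TMM scaling. F13a1 was at 5.97 and 5.66 CPM in IR+GFP and 2.72 and 3.55 in IR+Gli1, without overlap, and just missed the threshold (-0.91 ± 0.27, edgeR adjusted p = 0.0526). Cd163 was at 2.43 and 3.44 CPM in IR+GFP, and at 0.666 in IR+Gli1 1-2 but 2.57 in IR+Gli1 3 (-0.92 ± 0.64, edgeR adjusted p = 0.394). Lyve1 showed the same split, 0.612 CPM in IR+Gli1 1-2 and 2.13 in IR+Gli1 3, against 1.28 and 1.23 in IR+GFP (0.067 ± 0.63). Mrc1 (5.16 and 7.19, then 4.66 and 5.88 CPM; -0.23 ± 0.22) and Folr2 (1.83 and 3.13, then 3.35 and 2.57 CPM; 0.28 ± 0.38) overlapped.

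The scaling between libraries matters here, because TMM and scaling by total gene reads set the median of all genes 0.79 apart on the log2 scale in this comparison. By total gene reads Cd68, Siglec1 and Ms4a7 had log2 fold changes of 3.22, 3.20 and 2.97, and Adgre1 (2.28, edgeR adjusted p = 0.0090), Csf1r (1.10, edgeR adjusted p = 0.00050) and Folr2 (1.09, edgeR adjusted p = 0.0292) passed too, but by that scaling 67.5% of all genes rose and 0.622% fell. Mrc1 turned from -0.23 to 0.54 (edgeR adjusted p = 0.0629), and F13a1 was at -0.13 (edgeR adjusted p = 0.691), so the low level of F13a1 against IR+GFP holds relative to the other genes and not per read sequenced. Over 12 alternative settings Siglec1 and Ms4a7 passed in 12 and Cd68 in 11, and adjusted p ranged up to 0.0245, 0.0465 and 0.0656. Cd68 missed the threshold without IR+GFP 1-2. Without IR+Gli1 3, Cd163 (-2.12, edgeR adjusted p = 0.0319) and F13a1 (-1.10, edgeR adjusted p = 0.0400) passed as well. Of the 12 settings Cd163 passed in 3 and F13a1 in 6, with adjusted p up to 0.891 and 0.691. Without IR+GFP 3 and IR+Gli1 3 together, the 3 still passed. By DESeq2, 5 of the 10 markers passed, 4 higher and 1 lower, where 7.94% of all genes rose and 6.78% fell.

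**Figure D2:**
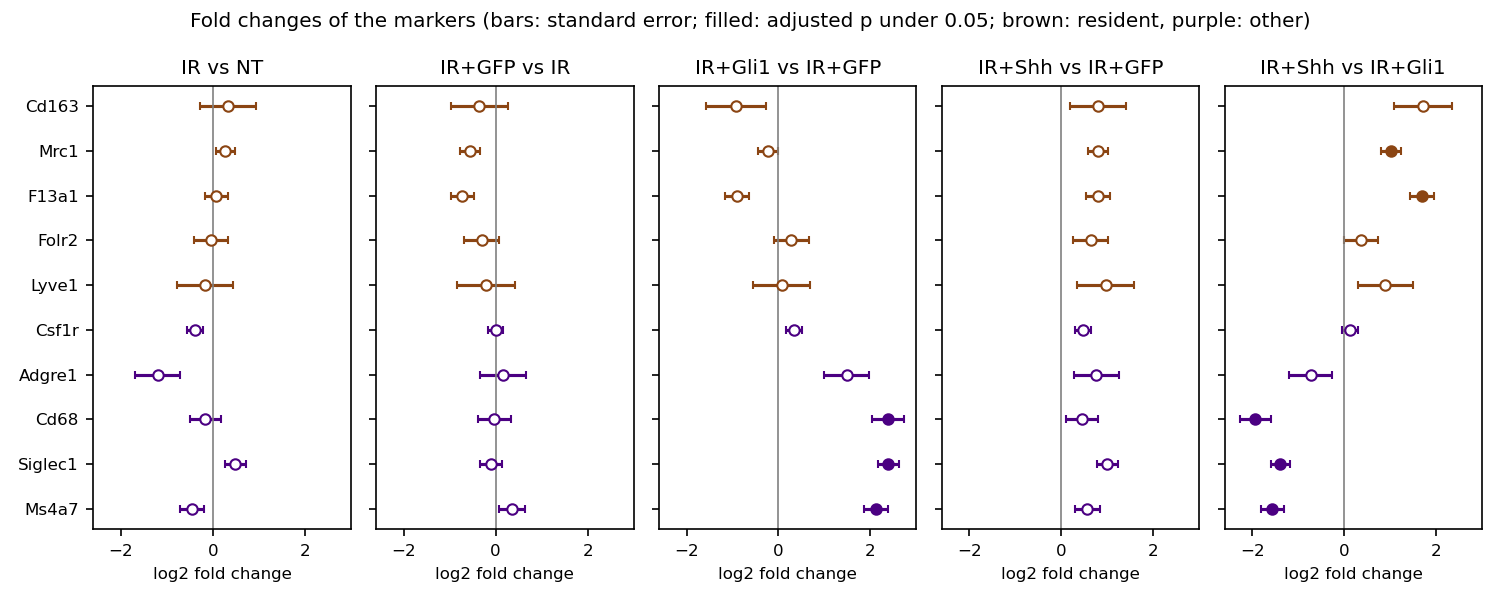
Log2 fold change (x axis) of each marker (rows) in 5 comparisons, 1 panel each, with the standard error as bars; filled points have an edgeR adjusted p under 0.05, and colours separate resident from other markers. Filled points appear only in the 2 panels that hold IR+Gli1, where Cd68, Siglec1 and Ms4a7 lie at 2.13 to 2.39 against IR+GFP.

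Reads per 100 reads of Csf1r put the same contrast free of any scaling. Cd68 had 18.2 and 23.8 reads per 100 of Csf1r in IR+GFP, and 133 and 51.2 in IR+Gli1. Siglec1 had 11.05 and 10.3, then 57.2 and 33.3, and Ms4a7 21.3 and 14.4, then 88.6 and 38.0. For these 3 genes all IR+Gli1 values lay above those of the other 8 samples, where the highest were 23.8, 15.4 and 21.3. F13a1 was the reverse, with 13.7 and 13.6 reads in IR+Gli1 and 27.0 to 54.8 elsewhere. Mrc1 had 23.5 and 22.4 reads in IR+Gli1 and 31.3 to 52.2 elsewhere. Cd163 (3.36 and 9.79) also lay below the 11.8 to 27.2 reads of the other samples. Folr2 (16.9 and 9.79) lay inside the range of the others, 8.30 to 18.2. Lyve1 had 1 value below (3.09) and 1 inside (8.13) the 5.28 to 13.2 of the others. These ranges have no test, and the share of all genes that lay outside them was not counted.

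**Figure D3:**
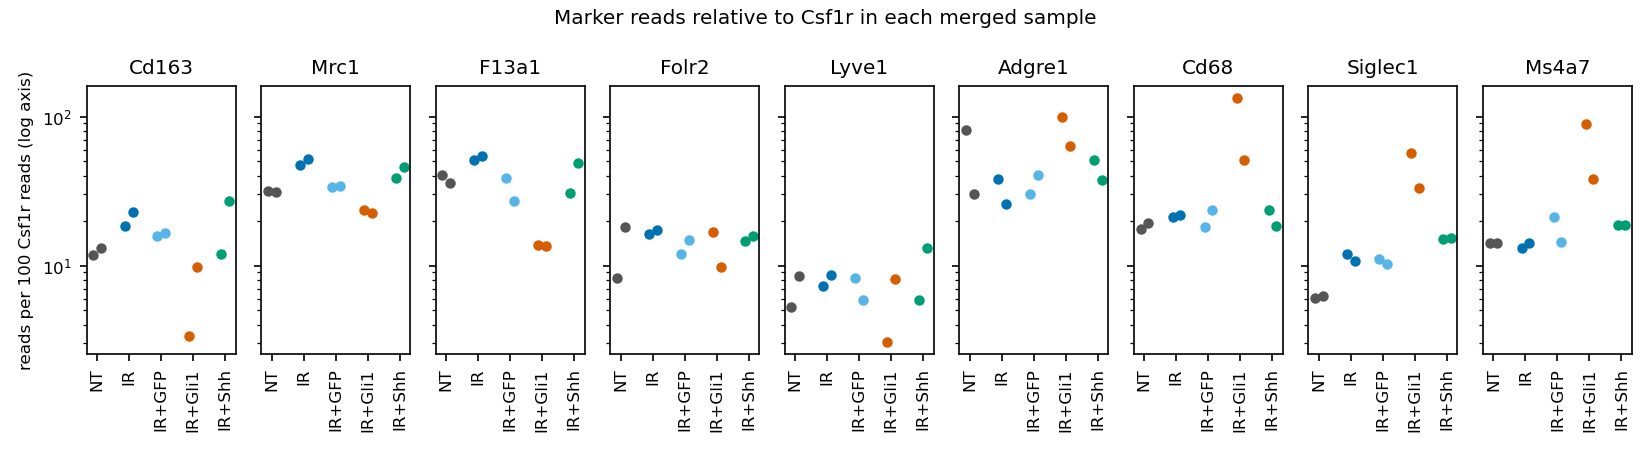
Reads of each marker per 100 reads of Csf1r (log axis) in the 2 merged samples of each group. Cd68, Siglec1 and Ms4a7 are above, and F13a1, Mrc1 and Cd163 below, all other samples in both IR+Gli1 samples, at 51.2 to 133 for Cd68 and 13.6 to 13.7 for F13a1.

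Markers of other cells moved with IR+Gli1. The T and NK cell genes summed to 43.0 and 17.4 CPM there and to 1.19 to 5.59 elsewhere, neutrophil genes to 13.8 and 3.55 against 0.341 to 1.61, and dendritic cell genes to 16.6 and 16.7 against 4.43 to 8.95. B and plasma cell genes, at 0.396 and 0.632 CPM, lay within the 0.213 to 3.12 of the rest. Of the dendritic cell list, Itgax, an integrin that macrophages also carry, rose (log2 1.85 ± 0.34, edgeR adjusted p = 0.0104), whereas Cd209a was at 0 CPM in both IR+Gli1 samples and Flt3, which defines dendritic cells, at 0.288 and 0.474 CPM, inside the 0.068 to 0.676 of the other samples. Of 8 epithelial genes of the submandibular gland, 3 fell and 0 rose against IR+GFP under TMM scaling (median -0.39). By total gene reads, where 67.5% of all genes rose and 0.622% fell, 3 rose and 2 fell of the 8 (median 0.36). Egf, a product of the granular ducts and by far the most abundant of them, was at 6387 and 18703 CPM in IR+Gli1, 50245 to 79110 in NT, IR and IR+GFP, and 29670 and 36621 in IR+Shh (-2.06 ± 0.44 against IR+GFP, edgeR adjusted p = 0.0183). The duct keratin Krt7 did not share this, at 312 and 280 CPM in IR+Gli1 and 210 to 261 elsewhere (0.28 ± 0.13, edgeR adjusted p = 0.175). The part of these cells in the marker values was not tested.

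Further macrophage genes were taken from lists, and their counts stand beside the 8.23% of all genes that rose, the 5.71% that fell and a median log2 fold change of 0.0054 over all genes in IR+Gli1 against IR+GFP. Of 14 core genes of macrophages, 9 rose and 0 fell (median 1.90). Ctss, a lysosomal protease, went from 29.1 to 121 CPM (means of 2 samples; 2.06 ± 0.23, edgeR adjusted p = 0.0029), and the Fc receptor gene Fcgr1 from 1.29 to 30.4 CPM (4.58 ± 0.61, edgeR adjusted p = 0.0058). Mpeg1, which encodes a pore-forming protein of phagocytes, rose by 1.93 ± 0.24 and Itgam by 3.17 ± 0.47 (edgeR adjusted p = 0.0039 and 0.0069). Of 13 tested genes of monocytes and inflammatory macrophages, 10 rose and 0 fell (median 4.61). They included Fcgr4 (0.925 to 14.0 CPM, means), Tnf (0.104 to 2.53), Spp1 (6.66 to 34.4) and Gpnmb (0.147 to 11.8), and all 4 passed with edgeR adjusted p between 0.0039 and 0.0078. By total gene reads 3 of 10 tested further genes of resident macrophages rose and 1 fell, beside 67.5% and 0.622% of all genes. Their median was then 0.059 (0.79 over all genes). Under TMM scaling 1 of the 10 rose and 0 fell (median -0.69). The 1 was Gas6 (0.49 ± 0.12, edgeR adjusted p = 0.0247), a ligand of the TAM receptors, which with 246 and 346 CPM (means) is the most abundant of that list and is also made by cells other than macrophages.

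A pair of monocyte genes was picked out after their values were seen. Ly6c2, a marker of classical monocytes, was at 0.171 and 0.307 CPM in IR+GFP and 66.7 and 15.7 in IR+Gli1, and at 1.21 and 0.663 in IR+Shh. Ccr2, the receptor by which these monocytes leave the marrow, was at 1.54 and 4.12 CPM in IR+GFP, 20.4 and 9.56 in IR+Gli1, and 4.68 and 3.80 in IR+Shh. IR+Gli1 1-2 had the higher level of each. It also had the higher Adgre1, Cd68, Siglec1 and Ms4a7 and the lower Cd163, Mrc1, F13a1 and Lyve1. The resident marker Folr2 was higher in IR+Gli1 1-2 (3.35 CPM) than in IR+Gli1 3 (2.57). Csf1r was lower in IR+Gli1 1-2 (19.8 CPM) than in IR+Gli1 3 (26.2).

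The growth factors and chemokines that act on macrophages rose in IR+Gli1 as a list, 4 of the 4 tested (median 1.08). Under that TMM scaling 8.23% of all genes rose against IR+GFP. By total gene reads the 4 rose as well (median 1.90), where 67.5% of all genes rose (median 0.79 over all genes). Csf1, the main ligand of the Csf1r receptor, was at 31.8 and 28.6 CPM in IR+GFP and 70.5 and 49.9 in IR+Gli1 (log2 1.00 ± 0.16, edgeR adjusted p = 0.0058). Il34, its second ligand, was at 17.5 and 21.5, then 32.4 and 33.9 CPM (0.77 ± 0.13, edgeR adjusted p = 0.0072). The monocyte chemokine Ccl2 was at 0.341 and 0.307, then 43.2 and 8.77 CPM, and Cx3cl1, the ligand of the fractalkine receptor, at 26.7 and 27.1, then 71.1 and 49.4 CPM (6.30 ± 0.90 and 1.17 ± 0.15, edgeR adjusted p = 0.0080 and 0.0035).

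Because Siglec1 responds to interferon, 12 interferon response genes were set beside it. All 12 rose against IR+GFP (median 4.47), where 8.23% of all genes rose. By total gene reads all 12 rose as well (median 5.35), where 67.5% of all genes rose (median 0.79 over all genes). Their sum was 1435 and 711 CPM in IR+Gli1, 208 and 142 in IR+Shh, and 81.96 to 111 in NT, IR and IR+GFP. Irf7, the interferon regulatory factor, was at 507 and 263 CPM in IR+Gli1, 53.5 and 25.2 in IR+Shh and 6.06 to 13.5 elsewhere. Stat2 and Ifih1 rose by 1.91 ± 0.16 and 1.67 ± 0.16 against IR+GFP (edgeR adjusted p = 0.0013 for each). The group means of Siglec1 had the same order, IR+Gli1, then IR+Shh, then the rest, and so had those of Cd68 and Ms4a7. The part of interferon in the Siglec1 values was not tested.

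Shh transfer was then compared with GFP transfer. None of the 10 markers passed by edgeR in IR+Shh against IR+GFP (4 at an unadjusted p under 0.05, 0 by DESeq2), in a comparison where 0% of all genes rose and 0% fell (872 genes at an unadjusted p under 0.05; DESeq2 called 32). Every marker had a log2 fold change above 0, from 0.45 (Cd68) to 1.00 (Siglec1) with a median of 0.78, where 50.2% of all genes were above 0 and their median was 0.0010. In 8 of the 10 both IR+Shh samples lay above both IR+GFP samples, against 21.7% of all genes. The exceptions were Cd163 and Cd68. T and NK cell genes lay higher as well, with a sum of 5.59 and 4.86 CPM in IR+Shh and 1.32 and 3.20 in IR+GFP; none of the 4 tested passed by edgeR (median 1.56), and in all 4 the groups did not overlap. Their part in the marker values was not tested.

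Siglec1 was at 3.60 and 4.09 CPM in IR+Shh against 1.71 and 2.15 in IR+GFP (1.00 ± 0.22, edgeR adjusted p = 0.490). Mrc1 was at 9.19 and 12.1 CPM against 5.16 and 7.19 (0.79 ± 0.21, edgeR adjusted p = 0.766), and F13a1 at 7.28 and 12.9 against 5.97 and 5.66 (0.80 ± 0.26, edgeR adjusted p = 0.808). Csf1r was at 23.7 and 26.5 CPM in IR+Shh (0.47 ± 0.17), Adgre1 at 12.2 and 9.95 (0.76 ± 0.49), and Ms4a7 at 4.42 and 4.94 (0.57 ± 0.27). Folr2 was at 3.47 and 4.20 CPM (0.64 ± 0.38), and Lyve1 at 1.39 and 3.50 (0.97 ± 0.61). IR+Shh 2 was the higher sample for all 5 resident markers and the highest of all 10 samples for 4 of them; for Folr2, NT 2-3 was higher. Cd163 stood at 7.22 CPM in IR+Shh 2 and 2.86 in IR+Shh 1-3, and without IR+Shh 2 its log2 fold change against IR+GFP was -0.032.

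Lyve1 and Mrc1 are also carried by lymphatic endothelium, so 6 lymphatic genes were summed. They came to 14.8 CPM in IR+Shh 2, the highest of all samples, and 9.49 in IR+Shh 1-3, against 6.68 to 12.8 elsewhere. Reln was at 6.08 CPM in IR+Shh 2 and 0.900 to 4.55 elsewhere, Mmrn1 at 1.44 against 0.220 to 1.02, while Prox1, which defines these cells, was at 0.374 CPM or lower in all samples and at 0.147 in IR+Shh 2. In IR+Gli1 the sum was 12.8 and 11.6 CPM, and Pdpn, which other cells also express, made up 8.19 and 4.58 of it. F13a1 is also found in platelets, whose 5 genes summed to 0.639 to 1.03 CPM in all samples. The part of lymphatic cells in the Lyve1 and Mrc1 values was not tested.

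Against untreated glands, 1 of 10 markers passed in IR+Shh: Siglec1, 2.63-fold higher (1.39 ± 0.22, edgeR adjusted p = 0.0175), where 1.36% of all genes rose and 0.902% fell. That call was lost without NT 2-3, without IR+Shh 1-3 and without IR+Shh 2. Csf1r (0.082 ± 0.17) and F13a1 (0.15 ± 0.25) were close to their untreated levels by their means. In IR+Gli1 against NT 4 of 10 passed, where 12.3% of all genes rose and 11.4% fell. Siglec1 (6.87-fold, 2.78 ± 0.22, edgeR adjusted p = 0.00030), Cd68 (4.54-fold, 2.19 ± 0.34, edgeR adjusted p = 0.0030) and Ms4a7 (4.07-fold, 2.03 ± 0.26, edgeR adjusted p = 0.0011) rose, and F13a1 fell by 1.56 ± 0.26 on the log2 scale (edgeR adjusted p = 0.0037). By total gene reads F13a1 still passed against NT, at -0.81 (edgeR adjusted p = 0.0166), where 64.7% of all genes rose and 1.58% fell.

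Of 10 tested further resident genes, 4 fell and 1 (Gas6) rose in IR+Gli1 against NT (median -0.86, 0.028 over all genes), beside the 11.4% and 12.3% of all genes given above. By total gene reads 3 fell and 2 rose, with a median of -0.14 (0.78 over all genes). Mgl2, a C-type lectin of resident macrophages and dendritic cells, was at 2.97 and 3.49 CPM in NT and 0.144 and 0.513 in IR+Gli1 (-3.44 ± 0.59, edgeR adjusted p = 0.0040). In the other irradiated groups it was at 0.607 to 1.78 CPM, also below both NT samples. Maf, a transcription factor of resident macrophages that other cells express too, was at 62.0 and 75.3 CPM in NT and 21.6 and 38.4 in IR+Gli1 (-1.20 ± 0.26, edgeR adjusted p = 0.0148). Fcna, the gene of the lectin ficolin A, was at 0.425 and 0.660, then 0.036 and 0.118 CPM (-2.95 ± 0.81, edgeR adjusted p = 0.0275). Gas6 rose against NT also in IR (0.69 ± 0.12, edgeR adjusted p = 0.0375) and IR+Shh (0.92 ± 0.12, edgeR adjusted p = 0.0086).

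Both Hedgehog transfers were also compared with each other. In IR+Shh against IR+Gli1, 5 of 10 markers passed: 2 resident markers were higher and 3 others lower in IR+Shh, where 2.76% of all genes were higher and 4.99% lower. F13a1 was at 7.28 and 12.9 CPM in IR+Shh and 2.72 and 3.55 in IR+Gli1, 3.22-fold higher (1.70 ± 0.26, edgeR adjusted p = 0.0126). Mrc1 was at 9.19 and 12.1 CPM and 4.66 and 5.88, 2.02-fold higher (1.02 ± 0.21, edgeR adjusted p = 0.0244). Cd68 (-1.93 ± 0.33, edgeR adjusted p = 0.0179), Ms4a7 (-1.56 ± 0.25, edgeR adjusted p = 0.0137) and Siglec1 (-1.39 ± 0.21, edgeR adjusted p = 0.0110) were lower in IR+Shh. Cd163 (1.72 ± 0.63, edgeR adjusted p = 0.134), Lyve1 (0.90 ± 0.59), Folr2 (0.37 ± 0.37), Csf1r (0.13 ± 0.17) and Adgre1 (-0.72 ± 0.46) did not pass. The directions of the 5 held in all 12 alternative settings, but the calls rested on both IR+Shh samples: 0 passed without IR+Shh 2, 1 without IR+Shh 1-3 (F13a1) and 3 without IR+Gli1 1-2 (Cd68, Siglec1 and Ms4a7). Without IR+Gli1 3, Cd163 (2.92, edgeR adjusted p = 0.0107) and Lyve1 (2.0, edgeR adjusted p = 0.0395) passed too. Of the 12 settings Cd163 passed in 6 and Lyve1 in 1, with adjusted p up to 0.523 and 0.968. By total gene reads Mrc1 missed the threshold (0.40, edgeR adjusted p = 0.166), Folr2 turned to -0.30, and Csf1r turned to -0.49 (edgeR adjusted p = 0.0396), where 0.587% of all genes were higher and 56% lower.

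The counts of the lists stand beside the 2.76% of all genes that were higher and the 4.99% that were lower. Of the 14 core genes 7 were lower in IR+Shh than in IR+Gli1 and 0 higher (median -1.28), of 13 monocyte and inflammatory genes 9 lower and 0 higher (-3.80), and of 12 interferon response genes 11 lower and 0 higher (-3.43), against a median of -0.020 over all genes. All 4 ligands were lower (-0.78). Of 10 further resident genes 0 passed in either direction, with a median of 0.81 and 9 of 10 above 0; by total gene reads the median was 0.17 (-0.67 over all genes), with 1 higher and 1 lower. By DESeq2, 6 of the 10 markers passed in this comparison, 3 higher and 3 lower, where 4.98% of all genes were higher and 5.88% lower.

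A balance between the classes was taken as the mean log2 CPM of the 5 resident markers minus that of the 5 others. It was -0.83 and -0.24 in NT, -0.25 and 0.036 in IR, -0.53 and -0.67 in IR+GFP, -0.95 and -0.13 in IR+Shh, and -3.30 and -2.13 in IR+Gli1. The 8 samples outside IR+Gli1 thus spanned 0.036 to -0.95, and both IR+Gli1 samples lay beyond that range. In IR+Gli1 the other markers averaged 4.20 and 3.80 log2 CPM, above the 2.06 to 2.95 elsewhere. The resident markers averaged 0.90, below the 1.53 to 2.82 elsewhere, in IR+Gli1 1-2, and 1.67, inside that range, in IR+Gli1 3. In IR+Shh 2 the resident mean reached 2.82, the highest of all samples, at the same mean of the other markers (2.95) as in IR+Shh 1-3. The balance is a description with no test, since the genes were chosen with results of these data known.

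**Figure D4:**
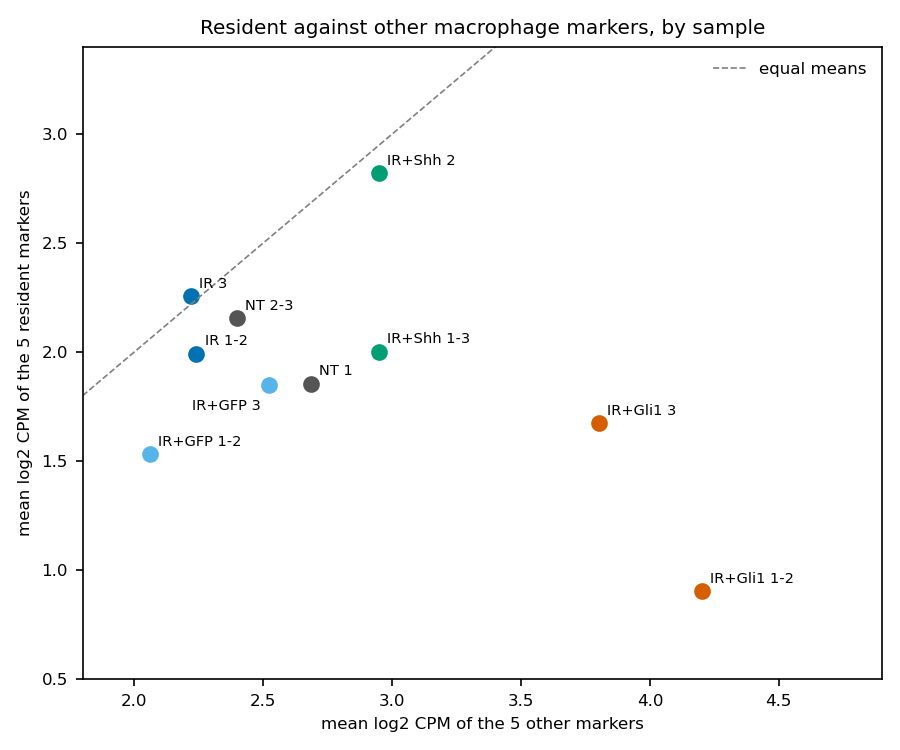
Mean log2 CPM of the 5 other markers (x axis) against that of the 5 resident markers (y axis), with 1 point per merged sample; the dashed line marks equal means. The IR+Gli1 samples lie to the lower right, at differences of -3.30 and -2.13, and the remaining 8 samples between 0.036 and -0.95.

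Across the 10 samples, the genes whose log2 CPM most resembled the mean of the other markers, among 11440 genes, were C1qc (Pearson r = 0.987), C1qb (0.978), Inpp5d (0.974), Ctss (0.973) and Ms4a6c (0.972). Over the 8 samples outside IR+Gli1 their r was 0.903 to 0.946. C1qb and C1qc are complement genes made by macrophages. The genes most like the resident mean were Kazald1 (0.950), Calml3 (0.926), Bckdhb (0.922), Pcdh7 (0.920) and Mxd4 (0.915). Outside IR+Gli1 their r was 0.860 to 0.892. Kazald1 was closer to the resident mean than any of the markers, and whether these genes are read from macrophages was not tested. Of the markers themselves, Mrc1 (0.941), Cd163 (0.915), F13a1 (0.849) and Lyve1 (0.837) followed the resident mean, to which they contribute, and Folr2 less so (0.542). Csf1r had an r of 0.421 with the resident mean and 0.607 with the mean of the other markers, to which it contributes. All these values come from 10 samples that share group means, and the scale of each library enters both sides of every r.

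A part of 2 genes' exons is shared with a neighbour that was counted as well: 975 of 1546 bases of Folr2 with Gm10602 and 873 of 5774 bases of Csf1r with Hmgxb3. Whether the counting used strand is not given in the sources used here, and without it reads in the shared bases go to neither gene. Gm10602 itself was at 0.671 to 1.65 CPM in all samples. The level of Folr2 is therefore uncertain.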

How the data were processed

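Total RNA (RNeasy kit) was made into TruSeq libraries and read on a HiSeq instrument, per the labels' protocols. The authors deposited raw counts of reads per Ensembl gene; the submitters' processing notes name TopHat2 2.0.13, HTSeq 0.10.0, Bowtie 0.12.2, and DESeq2 without a version; they list mm10 and GRCm38 as builds. Strand mode and annotation release are not given in the sources used here. Reads with several alignments were not counted.

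Symbols were matched for 95.99% of genes, and positions and exon lengths come from GENCODE vM21. Libraries agreeing within sampling noise (chi-square per gene, genes with 20 or more reads in the pair) were merged by the rounded mean of counts, leaving 10 samples of 18366306 to 37371064 reads. Both this number of samples and, for low markers, their reads (20 to 95 per sample for Lyve1) limit precision. A single edgeR 4.0.16 model (in R 4.3.3) held all 10 (filterByExpr, TMM, robust quasi-likelihood, 1 mean per group, no covariates, 5 residual degrees of freedom, common coefficient of variation 0.191). Tests were two-sided, Benjamini-Hochberg adjusted over 14300 genes, threshold 0.05, in 7 comparisons that share samples. Log2 CPM values use a prior count of 2, and log2 fold changes are those given by the edgeR test. Standard errors are the log2 fold change divided by the root of its F value. TPM was computed from counts and exon lengths. The procedure was tested on simulated data.

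The markers and lists were chosen with earlier results of these data known. Named genes are all 10 markers and, from each list, up to 4 that pass in any comparison by smallest adjusted p, otherwise the 2 of highest mean CPM; likeness used genes of at least 1 CPM. Alternatives were DESeq2 size factors, total gene reads, no low-count filter, DESeq2 1.42.0, 15 separate libraries with or without the replicate number as a block, the deeper library of each pair, and leaving out samples.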

Additional observations from a re-analysis of the deposited data

How the results depend on the processing

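The log2 fold changes of the 10 markers in the 5 comparisons up to IR+Shh against IR+Gli1 were recomputed under 12 alternatives each, 600 values in all, of which 517 kept their direction and their side of the threshold, 41 kept the direction and newly passed, 13 kept it and no longer passed, and 29 changed direction. The cause was not tested where no cause is named.

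Counts of markers passing differed as follows. In IR against NT (0) it was 1 without the low-count filter, 2 with 15 separate libraries and 2 with the replicate block. In IR+Gli1 against IR+GFP (3) it was 6 by total gene reads, 6 without the filter, 5 by DESeq2, 6 with 15 libraries, 7 with the replicate block, and 2 to 5 when a sample was left out. In IR+Shh against IR+GFP (0) it was 4 without the filter, 3 with 15 libraries and 3 with the replicate block. In IR+Shh against IR+Gli1 (5) it was 6 by DESeq2, 6 with 15 libraries, 6 with the replicate block, 7 without the filter, and 0 to 7 when a sample was left out. In IR+Gli1 against NT (4) it was 4 to 6 over all alternatives, 5 by total gene reads, 6 with the replicate block, and 4 to 5 when a sample was left out. In IR+Shh against NT (1) it was 2 with 15 libraries, 2 with the replicate block and 0 to 1 when a sample was left out. Fits of 15 libraries count near-identical libraries as independent. By total gene reads 67.5% of all genes rose and 0.622% fell in IR+Gli1 against IR+GFP. Against NT, 64.7% rose and 1.58% fell by that scaling. By DESeq2, 7.94% rose and 6.78% fell in IR+Gli1 against IR+GFP. The share of all genes is not given here for the remaining settings, so a higher count there is not a stronger result for the markers.

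Directions changed as follows. Folr2 in IR against NT was 0.033 with the deeper library of each pair. Adgre1 in IR+GFP against IR was -0.067 with 15 libraries, -0.057 with the replicate block and -0.32 without IR+GFP 3 and IR+Gli1 3. Lyve1 in IR+Gli1 against IR+GFP was -0.29, -0.36 and -1.06 in the same 3 settings. By total gene reads Mrc1 was 0.54 in that comparison, and Folr2 -0.30 and Csf1r -0.49 in IR+Shh against IR+Gli1, as that scaling shifts all genes. Leaving out a sample gave, in IR against NT, -0.033 to 0.19 for F13a1, -0.48 to 0.60 for Folr2 and -0.45 to 0.18 for Lyve1. In IR+GFP against IR it gave -0.23 to 0.21 for Csf1r, -0.32 to 0.55 for Adgre1, -0.47 to 0.35 for Cd68, -0.73 to 0.045 for Folr2 and -0.27 to 0.065 for Siglec1. In IR+Gli1 against IR+GFP it gave -0.074 to 0.70 for Folr2, -0.46 to 0.023 for Mrc1 and -1.03 to 0.75 for Lyve1. It gave -0.032 to 1.31 for Cd163 in IR+Shh against IR+GFP, -0.052 to 0.34 for Csf1r in IR+Shh against IR+Gli1, and -0.25 to 0.036 for the balance in IR. A group left with 1 sample was assumed to vary like the others.

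Most libraries of equal replicate number were not alike: among 30 such pairs only 3 had deviations with an r above 0.1. The highest r was 0.598, and what those 3 pairs share was not tested. A library was most like those of its own number in 7 of 15 cases. With 2 samples per group, 0 of 10 markers passed in IR against NT or in IR+GFP against IR; this does not show that they did not differ.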
